A study of Mus musculus with 172 samples.

Results

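The BXD/TyJ lines are the older of the BXD panels in this series, and their cortex and liver transcriptomes were compared with those of the BXD/RwwJ lines. Members were all libraries whose genotype label reads BXD/TyJ: lines 05, 29, 29t and 32, written here as BXD5, BXD29, BXD29t and BXD32. They make up 16 of the 172 libraries in the series, 1 library per line in each of cortex and liver, for mice left undisturbed (Ctr) and for mice kept awake for 6 h (SD). The comparison group was the 33 BXD/RwwJ lines with their 132 libraries, again 1 per line, tissue and condition. No library of the parental strains C57BL/6J and DBA/2J or of their F1 hybrids entered the comparison, and those of the parental strains are given only as reference levels. Per the study's methods, the RwwJ mice were young adult males and RNA was pooled over mice of a line, with fewer animals for BXD79, BXD85 and BXD101. The study states that different DBA/2 substrains founded the panels (DBA/2J for the older one) and that BXD5 and BXD32 were phenotyped anew, whereas the age, sex and pooling of the TyJ mice of these libraries are not given in the sources used here. Breeding history, founding substrain, source and panel therefore cannot be told apart. BXD29 and BXD29t share a line number, and the labels do not say what the letter t stands for. The 4 TyJ libraries of a tissue and condition thus carry 3 line numbers. Nothing says that TyJ libraries were replicated within a line, so the spread behind each test is that between labelled lines. Lines that share a number were entered separately, so part of that spread lies within a line number. The p-values of these tests may therefore be too small, and fits with such lines averaged are among the alternatives.

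BXD lines are recombinant inbred mice. C57BL/6J and DBA/2J were intercrossed and their descendants inbred, so that at each locus a line is fixed for the allele of either parent. The TyJ panel was derived long before the RwwJ panel. New mutations are known to have been fixed in the parental stocks over that time, and others to have arisen within lines. The TyJ libraries were accordingly described in 3 ways, as a group against the RwwJ lines, line by line, and by the parental level they resemble.

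The libraries of both panels were of like depth in most cases. Depth and library total mean here the sum of reads on the listed genes, not all reads sequenced. TyJ cortex libraries held from 20685223 to 22981589 reads in Ctr and from 20995140 to 25073133 in SD, within the ranges of the RwwJ lines. TyJ liver libraries held from 6408479 to 8722196 reads in Ctr and from 5887216 to 9022854 in SD. The highest TyJ value in each condition was that of BXD29t, above the deepest RwwJ library in Ctr (8269401) and in SD (8009362). Some libraries stood apart by the number of genes that lay outside the range of the RwwJ lines. BXD5 in cortex Ctr (3437 genes) and BXD29t in liver SD (2033 genes) had the highest counts of the TyJ libraries. Of the RwwJ lines, BXD90 was highest in cortex Ctr (5604), BXD50 in liver Ctr (2718) and BXD70 in liver SD (6441), and tests without these 3 lines are given where a call changed. The markers of the labelled tissues were present in every TyJ library. The summed level of 5 excitatory neuron markers in cortex Ctr was between 12.79 and 12.96 log2 CPM (reads scaled to the library total, on the log2 scale), and that of 6 hepatocyte markers in liver Ctr was between 11.45 and 11.81.

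As a group, the TyJ lines differed from the RwwJ lines at few genes. In cortex Ctr, limma called 4 of 14896 genes at an adjusted p under 0.05, which is 0.0269% of the genes tested. Nnt, Tsr1 and Tmem246 were higher and Unc13b was lower in the TyJ lines. The median difference over all genes was -0.0025 on the log2 scale, and 1368 genes (9.18%) had an unadjusted p under 0.05. In cortex SD, 5 genes were called (0.0336%). Nnt, Tsr1 and Srr were higher, and Gpc2 and Eogt were lower. Nnt and Tsr1 were called with the same sign in both conditions, so that 2 genes (0.0134%) held in SD. Without BXD5, 8 genes were called in cortex Ctr and 6 held in SD (Mettl16, Mnt, Nnt, Sgsm2, Srr and Tsr1), and without BXD29 or without BXD29t none held. In liver, limma called 0 of 14107 genes in Ctr and 0 in SD, with 802 (5.69%) and 578 (4.1%) genes at an unadjusted p under 0.05. Voom, which weights each value by the precision of its read count, called 18 genes in liver Ctr, 13 in liver SD and 8 in both. The 8 were 4930412C18Rik, Ctse, Gm5077, Ifi202b, Mup11, Mup12, Mup14 and Ptgds, of which the Mup genes share reads with near-identical copies. No gene held in both tissues, out of 12695 genes listed in both.

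**Figure D1:**
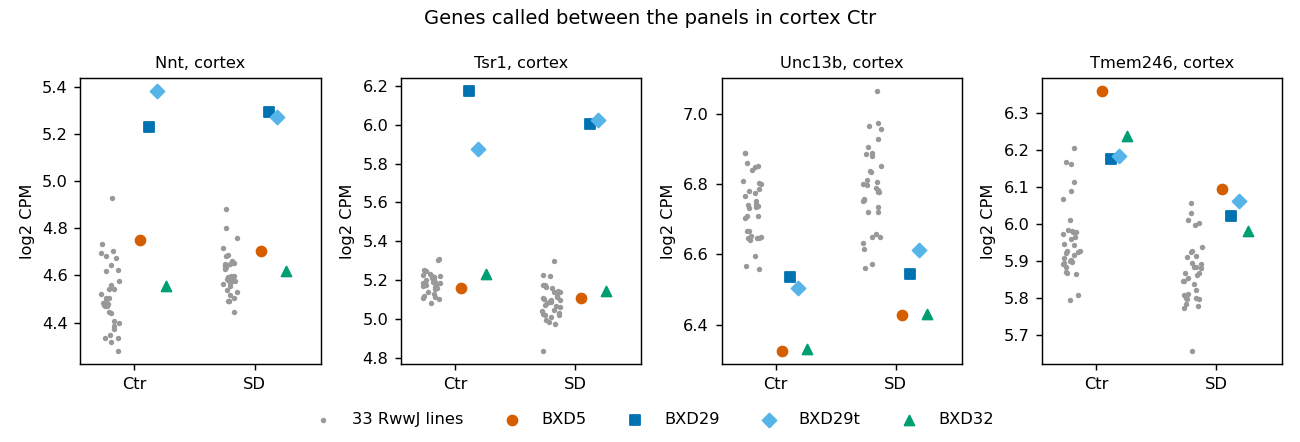
The 4 genes called between the panels in cortex Ctr, in log2 CPM, with Ctr and SD libraries side by side. Grey points are the 33 RwwJ lines and coloured symbols the 4 TyJ lines. For Nnt and Tsr1 the BXD29 and BXD29t symbols stand above every grey point while BXD5 and BXD32 lie among them, and for Unc13b all 4 TyJ symbols lie below the grey points in Ctr.

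Unc13b, on chromosome 4 (43071825 to 43277745 of mm9), encodes a protein that primes synaptic vesicles for release. In cortex Ctr it stood at 6.33 in BXD5, 6.54 in BXD29, 6.51 in BXD29t and 6.33 log2 CPM in BXD32. The RwwJ lines ranged from 6.56 to 6.89 with a median of 6.74, so that the groups did not overlap. The difference of -0.31 (standard error 0.0486) had a limma adjusted p of 0.00244, and Unc13b was called in cortex Ctr under all alternatives run. In cortex SD the TyJ lines were at 6.43, 6.55, 6.61 and 6.43 against 6.56 to 7.06 in the RwwJ lines. The difference there was -0.29 (limma adjusted p = 0.0633), close to the Ctr value but above the threshold of 0.05. In cortex Ctr the parental libraries did not overlap, with C57BL/6J at 6.59 and 6.55, at the bottom of the RwwJ range, and DBA/2J at 6.79 and 6.80. All 4 TyJ values were lower than those of either parent, BXD29 and BXD29t only just. In liver, Unc13b was spread widely among the RwwJ lines (2.95 to 6.33 in Ctr), and the TyJ lines (4.18 to 5.83) lay within that range.

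Besides Unc13b, Tnfrsf19 was the only gene whose groups did not overlap in cortex Ctr (2 genes, 0.0134%). Tnfrsf19, a receptor of the tumour necrosis factor receptor family, was at 6.12, 6.27, 6.27 and 6.18 log2 CPM in BXD5, BXD29, BXD29t and BXD32. The lowest RwwJ line was also at 6.27 to 2 decimals, and the difference was -0.21 (limma adjusted p = 0.111). In cortex SD the genes without overlap were Atxn7 and Ccnd1 (2 genes, 0.0134%), at limma adjusted p-values of 0.112 and 0.459. Cyclin D1, the product of Ccnd1, was high in C57BL/6J (6.05 and 6.12 in cortex SD) and low in DBA/2J (4.77 and 4.66), and the TyJ lines were at 4.48 to 4.66. No gene was without overlap in both conditions.

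Tmem246 encodes a membrane protein of the Golgi that acts on glycosylphosphatidylinositol anchors, and it had no position in the annotation used. Its cortex Ctr values were 6.36 in BXD5, 6.17 in BXD29, 6.18 in BXD29t and 6.24 log2 CPM in BXD32. The RwwJ lines ranged from 5.79 to 6.21 (median 5.93), and 32 of the 33 lay below all TyJ lines. The difference was 0.28 (standard error 0.0517, limma adjusted p = 0.0219) in Ctr and 0.17 (limma adjusted p = 0.165) in SD. C57BL/6J (6.14 and 6.18) was nearer the TyJ levels than DBA/2J (6.00 and 5.96). Leaving out BXD5, BXD29t or BXD32 ended the call, with differences of 0.24, 0.30 and 0.28 and limma adjusted p-values of 0.183, 0.089 and 0.0705.

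Nnt encodes the nicotinamide nucleotide transhydrogenase of the inner mitochondrial membrane, which makes NADPH from NADH. C57BL/6J mice are known for a deletion within this gene, and it was 1 of the 6 genes listed for mutations that separate BXD stocks. It lies on chromosome 13 (120124255 to 120197804). In cortex Ctr it was at 4.75 in BXD5, 5.23 in BXD29, 5.38 in BXD29t and 4.55 log2 CPM in BXD32. The RwwJ lines had a lowest value of 4.28, a median of 4.49 and a highest value of 4.93. BXD29 and BXD29t were thus above all RwwJ lines and BXD5 and BXD32 were inside their range. The difference of 0.46 (standard error 0.0917) had a limma adjusted p of 0.0395. In cortex SD the 4 lines were at 4.70, 5.29, 5.27 and 4.62 against 4.44 to 4.88 in the RwwJ lines, a difference of 0.37 (limma adjusted p = 0.0276). The call rested on the lines numbered 29. Without BXD29 the Ctr difference was 0.38 (limma adjusted p = 0.286), without BXD29t 0.33 (0.427), and without both 0.14 (0.468). With lines of the same number averaged, so that 3 TyJ values met 30 RwwJ values, it was 0.35 (limma adjusted p = 0.48). Without BXD50, BXD70 and BXD90 the SD difference was 0.36 (limma adjusted p = 0.0683).

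In liver, Nnt had another pattern. The RwwJ lines fell into a lower and an upper set, with C57BL/6J (7.09 in both libraries) at the level of the lower and DBA/2J (7.87 and 7.79) at that of the upper set. All TyJ lines stood at the upper level, at 7.96 in BXD5, 7.98 in BXD29, 7.85 in BXD29t and 7.82 log2 CPM in BXD32. In Ctr, 24 of the 33 RwwJ lines were below all 4 and 2 were above all 4. In SD the TyJ lines were at 8.03, 8.04, 7.97 and 7.92, and 30 RwwJ lines were below them. The difference was 0.40 (standard error 0.183, limma adjusted p = 0.84) in Ctr and 0.43 (limma adjusted p = 0.999) in SD. BXD29 and BXD29t, raised over the other TyJ lines in cortex, were not raised over them in liver.

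The other members of the list of panel mutation genes were not called in either tissue. Gabra2, a subunit of the GABA-A receptor on chromosome 5 whose expression is known to be reduced in C57BL/6J by a deletion in an intron, was at 5.62, 6.23, 6.23 and 6.26 log2 CPM in cortex Ctr of BXD5, BXD29, BXD29t and BXD32. The RwwJ lines went from 5.02 over a median of 6.08 to 6.28, with C57BL/6J at 5.05 and 5.11 and DBA/2J at 6.07 and 6.22. BXD29, BXD29t and BXD32 were among the upper values. BXD5 lay between the parental levels in Ctr and at 5.99 in SD, where C57BL/6J had 5.46 and 5.43. The panel difference was 0.15 (limma adjusted p = 0.801). Over the GABA-A receptor subunits, 0 of 12 listed in cortex were called by limma in Ctr and 1 had an unadjusted p under 0.05. Of all cortex genes, 0.0269% were called and 9.18% had such a p. The median difference of the subunits was -0.037 against -0.0025 over all genes.

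Gpnmb, a membrane glycoprotein of pigment cells and macrophages that DBA/2J mice are known to lack through a nonsense mutation, is on chromosome 6. All TyJ lines had the level of C57BL/6J, with 1.31, 1.78, 1.60 and 1.89 log2 CPM in cortex Ctr. C57BL/6J was at 1.30 and 1.64 and DBA/2J at -2.13 and -1.50. The RwwJ lines spanned both levels, from -3.55 to 2.25 with a median of 0.81, and 21 of them were below all TyJ lines. The difference of 1.85 (standard error 1.015) had a limma adjusted p of 0.581, and that in SD of 1.88 an adjusted p of 0.648.

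Tlr4 encodes the receptor for bacterial lipopolysaccharide and lies on chromosome 4 (66488618 to 66591318). A stock of BXD29 is known for a spontaneous mutation in it, and the labels do not say whether BXD29 or BXD29t is of that stock. Levels were low, with 15 to 26 reads in the TyJ cortex Ctr libraries. Their values were between -0.45 (BXD29t) and 0.27 (BXD32), and 29 of the 33 RwwJ lines were above all of them (range 0.04 to 1.29). In cortex SD, BXD29t was at -0.58 with 13 reads, below the lowest RwwJ line at 0.28, while BXD5, BXD29 and BXD32 were at 0.91, 0.73 and 0.60 and inside the range. The panel difference was -0.66 (limma adjusted p = 0.189) in cortex Ctr and -0.64 (limma adjusted p = 0.538) in liver Ctr. In liver Ctr, too, 29 RwwJ lines were above the TyJ values of 1.85, 1.53, 1.59 and 1.63, and only BXD29 was below the lowest RwwJ line (1.58). In liver SD, by contrast, BXD29 (2.55) and BXD32 (2.43) reached the RwwJ median of 2.41. BXD5 was at 2.01 there, and BXD29t was at 1.51 with 25 reads, below the lowest RwwJ line at 1.64. Of the 12 genes of Tlr4 signalling, limma called 0 in either tissue and 2 had an unadjusted p under 0.05 in each tissue in Ctr. Over all genes 9.18% in cortex and 5.69% in liver had such a p, and 0.0269% and 0% were called. The list's median difference was -0.029 in cortex and 0.057 in liver. Klrd1, a natural killer cell receptor gene, was listed in liver only, with 0 to 4 reads in TyJ libraries. Taar1, a trace amine receptor gene, was not listed in either tissue.

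**Figure D2:**
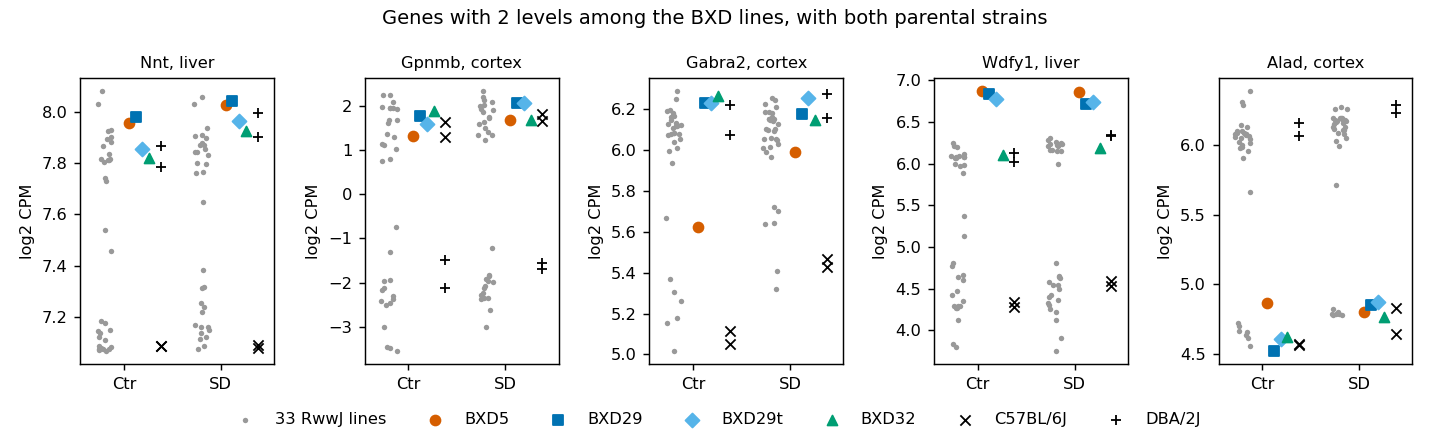
Genes with an upper and a lower level among the BXD lines, in log2 CPM, for liver (Nnt and Wdfy1) and cortex (Gpnmb, Gabra2 and Alad). Grey points are RwwJ lines, coloured symbols TyJ lines, and crosses and plus signs the 2 libraries of each parental strain. In Nnt, Gpnmb, Wdfy1 and Alad all 4 TyJ symbols stand with the same parental level, and RwwJ points stand at both.

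The second gene held in both conditions, Tsr1, led to a short stretch of chromosome 11. Tsr1 encodes a ribosome maturation factor (74711573 to 74722844). In cortex Ctr it was at 5.16 in BXD5, 6.17 in BXD29, 5.88 in BXD29t and 5.23 log2 CPM in BXD32, and in SD at 5.11, 6.00, 6.02 and 5.15. The RwwJ lines were close together, from 5.09 to 5.31 (median 5.19) in Ctr and from 4.84 to 5.30 in SD. BXD29 and BXD29t lay far above them and BXD5 and BXD32 among them. The panel difference was 0.42 (standard error 0.0787, limma adjusted p = 0.0219) in Ctr and 0.48 (0.0196) in SD. Without BXD29 and BXD29t it was 0.01 in Ctr (limma adjusted p = 0.95). With lines of the same number averaged it was 0.28 in Ctr (limma adjusted p = 0.48). In liver Ctr the values were 6.02, 6.90, 6.83 and 6.33 against 5.82 to 6.45, again with only BXD29 and BXD29t above the range. The liver panel difference was 0.28 (limma adjusted p = 0.667).

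The neighbours of Tsr1 were raised in the same lines. These neighbours and all other genes named from here on were chosen after their values were seen, unless the text says that they belong to a list. In both lines numbered 29, 6 adjacent listed genes (Mettl16, Mnt, Sgsm2, Tsr1, Srr and Smg6, from 74584332 to 74977950) were above the RwwJ range in cortex in Ctr and in SD. The same 6 were above it in liver in BXD29. In BXD29t liver, Mettl16, Mnt, Sgsm2 and Tsr1 formed the run. It was 1 of 7 runs of 3 or more such neighbours in BXD29t liver, and the others were all lower. Among them were Fgg, Fga and Fgb on chromosome 3 and the run from Ahsg to Kng1 on chromosome 16, which hold genes of plasma proteins. BXD29t was the deepest liver library, and the part that depth had in these lower runs was not tested. BXD32 had 1 run in liver and BXD5 had 0 in either tissue. No RwwJ line had a run in cortex, and in liver 28 of the 33 had none and the highest number was 2. In cortex the chromosome 11 block was thus the only run of any line, whereas in liver it was not.

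Sgsm2, which encodes a regulator of small GTPases, had cortex Ctr values of 7.11, 8.29, 8.09 and 7.33 log2 CPM in BXD5, BXD29, BXD29t and BXD32, and the RwwJ lines spanned 7.20 to 7.52. Mettl16, an RNA methyltransferase gene, was at 4.16, 5.27, 4.88 and 4.26 against 3.93 to 4.39. Mnt, whose product opposes Myc at its target genes, was at 5.69, 6.39, 6.21 and 5.90 against 5.48 to 5.88, so that BXD32 was also just above the range. In each of these genes BXD29 stood higher than BXD29t, and both stood above every RwwJ line. Srr makes the enzyme that converts L-serine to the NMDA receptor co-agonist D-serine. Its cortex Ctr values were 6.48, 7.89, 7.56 and 6.84 against 6.49 to 7.0, with BXD5 just under the lowest RwwJ line. In SD they were 6.88, 7.89, 7.85 and 6.88 against 6.66 to 6.97. The panel difference for Srr was therefore 0.33 (limma adjusted p = 0.389) in Ctr and 0.52 (limma adjusted p = 0.0196) in SD. Smg6, a nuclease of nonsense-mediated decay, was raised least, at 5.87, 6.42, 6.36 and 6.10 against 5.91 to 6.25.

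The block was also seen in liver. Sgsm2 was at 5.05, 6.46, 6.33 and 5.44 log2 CPM against 5.00 to 5.85 in liver Ctr, and Mettl16 at 5.55, 6.45, 6.32 and 5.62 against 5.47 to 5.99. Mnt was at 5.07, 5.96, 5.91 and 5.42 against 4.82 to 5.62. These liver values of BXD29 and BXD29t differed little from each other. The parental strains were within the RwwJ range at all 3 genes in liver Ctr, for example with Mettl16 at 5.64 and 5.63 in C57BL/6J and 5.70 and 5.79 in DBA/2J. Neither parent had the raised level there. Within 1 Mb on either side of Tsr1, 31 genes were listed in cortex and 29 in liver. In cortex Ctr, 7 of the 31 were above the RwwJ range in BXD29, 6 in BXD29t, 4 in BXD5 and 2 in BXD32. Below it were 1, 2, 4 and 3 in the same order. Over all 14896 genes listed in cortex Ctr, 821 lay outside the range on either side in BXD29 and 633 in BXD29t. In BXD5 there were 3437 and in BXD32 779. The count of BXD5 near Tsr1 thus came from a library with many such genes throughout. The annotations of Tsr1 and Srr overlap on opposite strands, and per the study's methods reads were counted by strand.

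**Figure D3:**
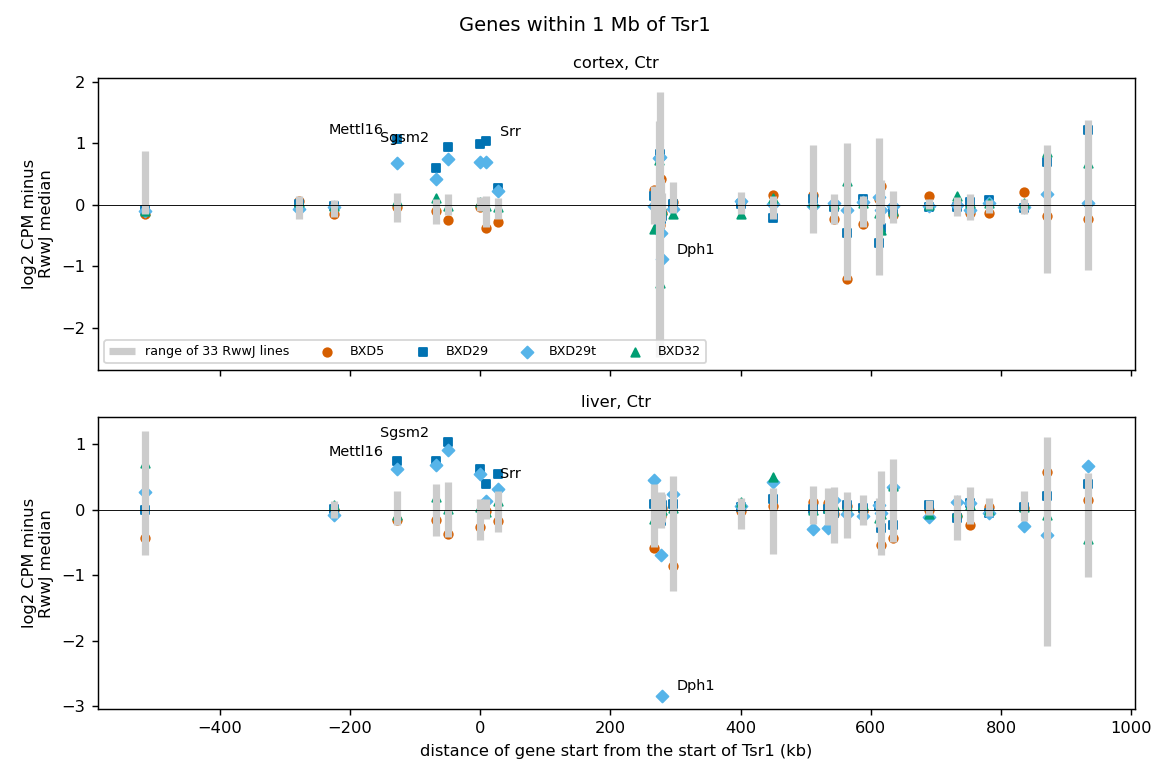
Genes within 1 Mb of Tsr1, by the distance of their start from the start of Tsr1 in kb (x axis), in cortex Ctr and liver Ctr. The y axis is the log2 CPM of each TyJ line minus the RwwJ median, and grey bars are the range of the 33 RwwJ lines. Squares (BXD29) and light diamonds (BXD29t) rise above the bars from Mettl16 to Smg6, and the diamond of Dph1 lies far below its bar in liver.

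BXD29 and BXD29t could be told apart within the same region. Dph1, which takes part in making the diphthamide residue of elongation factor 2, lies just past the block (74991145 to 75004743). In liver Ctr it was at 5.78 in BXD5, 5.83 in BXD29, 2.91 in BXD29t and 5.75 log2 CPM in BXD32, with 348, 393, 67 and 364 reads. The RwwJ lines ranged from 5.56 to 5.99. In liver SD the values were 5.54, 5.51, 3.04 and 5.45, and in cortex Ctr 3.71, 3.65, 2.95 and 3.75 against 3.58 to 4.03. Of the TyJ lines BXD29t alone was low, and it was low in all 4 of its libraries. Ovca2, which overlaps the end of Dph1 on the same strand, was at 4.52, 4.45, 3.93 and 4.60 in liver Ctr against 4.34 to 4.90. Since the genes overlap on 1 strand, reads in their shared stretch cannot be assigned to either of them. On chromosome 16 (77014314 to 77117024), Usp25, a deubiquitinase gene, was high in BXD29t only in cortex. It stood at 5.29, 5.41, 6.19 and 5.49 in Ctr (RwwJ lines up to 5.67) and at 6.28 in BXD29t in SD (RwwJ lines up to 5.71). In liver Ctr BXD29t was at 7.06 and inside the range of 6.94 to 7.41.

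Over all genes, BXD29 and BXD29t were the most alike of the TyJ lines. With each gene centred on its mean over the 37 BXD lines, Pearson's r across genes between their Ctr libraries was 0.585 in cortex and 0.453 in liver. The other TyJ pairs had an r of -0.13 to 0.07 in cortex Ctr and -0.11 to 0.12 in liver Ctr. RwwJ pairs that share a line number had an r of 0.34 to 0.50 in cortex Ctr and 0.27 to 0.40 in liver Ctr. In cortex SD the r of BXD29 with BXD29t was 0.589, against 0.45 to 0.51 in those RwwJ pairs. In liver SD it was 0.372, within their 0.27 to 0.41. The 3 RwwJ pairs that share a line number (BXD48 and BXD48a, BXD65 and BXD65a, BXD73 and BXD73b) had from 30 to 37 genes in cortex that differed by at least 1 on the log2 scale in both conditions. BXD29 and BXD29t had 5 such genes, among them Cbln3, Cd4, Epsti1 and Sec14l3. In liver they had 107, against 137 to 237 in the RwwJ pairs. The median r of a TyJ line with an RwwJ line in cortex Ctr was -0.050 and that of RwwJ lines with each other -0.037, so that the TyJ lines did not form a group of their own by this measure. These correlations are across genes, which are not independent, and libraries share the mean that was taken from them.

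Each TyJ line was next described by the genes at which it lay above or below all RwwJ lines in Ctr and again, in the same direction, in SD. Each RwwJ line was measured likewise against the other RwwJ lines, leaving out any that shares its line number. An RwwJ line thus faced fewer lines than a TyJ line did, which by itself makes lying outside slightly easier. In cortex, BXD5 had 667 such genes (4.48% of those listed), BXD29 had 123 (0.826%), BXD29t had 123 (0.826%) and BXD32 had 181 (1.22%). RwwJ lines had from 26 to 220 with a median of 76. In liver, BXD5 had 83 (0.588%), BXD29 had 67 (0.475%), BXD29t had 864 (6.12%) and BXD32 had 133 (0.943%), and RwwJ lines had from 22 to 511 with a median of 64. Among 37 BXD lines, BXD5 ranked highest in cortex. BXD29t did so in liver, though not with the library total as a covariate, where it had 222 genes and BXD32 had 290. Without the covariate, the liver rank of BXD5 was 16 and that of BXD29 was 19. Most of these genes lay near the edge of the range, with median gaps of 0.024 to 0.067 on the log2 scale. Genes outside the range in the same direction in both tissues and both conditions numbered 3 in BXD5, 8 in BXD29, 14 in BXD29t and 6 in BXD32 of the 12695 genes listed in both tissues, against 0 to 6 (median 1) in RwwJ lines. A further 3 genes in BXD5 and 1 in BXD29t were outside in opposite directions in the tissues, against 0 to 4 in RwwJ lines. These counts over both tissues were made without the covariate.

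**Figure D4:**
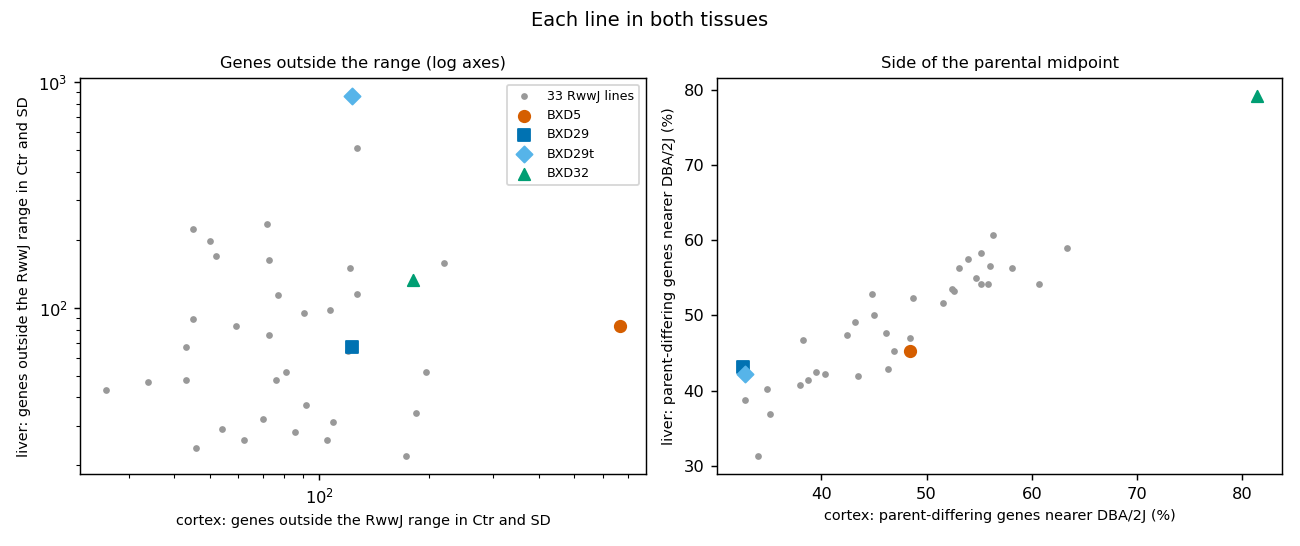
Left, genes outside the RwwJ range in Ctr and SD, in cortex (x axis) and liver (y axis), both on log axes. Right, the share of genes differing between the parents at which a line was nearer DBA/2J, in cortex and liver. Grey points are RwwJ lines. BXD5 lies farthest right (667 genes in cortex) and BXD29t highest (864 genes in liver, 222 with the library total as a covariate) on the left, and BXD32 lies apart at 81.4% and 79.1% on the right.

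In BXD5, Zc4h2 and Abcc3 stood far below all other BXD lines. Zc4h2, an X-linked zinc finger gene active in the developing nervous system (X, 92834532 to 92853848), was at 1.43 log2 CPM in cortex Ctr of BXD5 with 63 reads. BXD29, BXD29t and BXD32 were at 4.44, 4.37 and 4.35 with 454, 451 and 454 reads, and the RwwJ lines spanned 4.14 to 4.56. In SD, BXD5 was at 2.04 and the RwwJ lines were at 3.94 or above. In liver Ctr it had 3 reads (-0.69) and the other TyJ lines had 27 to 46. Abcc3 encodes a transporter that exports bile acids and conjugates into the blood (chromosome 11, 94204612 to 94254311). It was at 5.67 in liver Ctr of BXD5 with 322 reads, against 8.95, 8.72 and 8.89 in BXD29, BXD29t and BXD32 and 8.58 to 9.20 in the RwwJ lines. In liver SD, BXD5 was at 5.34. In cortex, where Abcc3 is low, BXD5 was also below the range (0.24 against 0.35 to 2.15). Dnajb12, a chaperone gene of the endoplasmic reticulum, was the gene above the range in both tissues, at 5.30 in cortex Ctr (RwwJ lines up to 5.26) and 7.19 in liver Ctr (up to 6.98). Cyp3a44, a cytochrome P450 gene, was at 5.05 with 209 reads in BXD5 liver Ctr and 4.12 in SD, where the RwwJ lines reached 2.71 and 2.77.

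The 667 cortex genes of BXD5 differed in transcript length by direction. The median length of the longest annotated transcript was 1950 bases for the 359 higher genes and 6057 bases for the 308 lower genes, against 3172 bases over all listed genes, with lengths known for 91.9% to 93.3% of each set. Pvalb, the calcium-binding protein of fast-spiking interneurons and a listed marker, was at 6.72 in BXD5 against 5.44, 5.58 and 5.79 in BXD29, BXD29t and BXD32 in cortex Ctr, and at 6.36 in SD. The RwwJ lines did not exceed 6.11 in Ctr and 6.13 in SD. The summed level of the 6 inhibitory neuron markers was 10.13 in BXD5 and 10.09 in BXD32 in cortex Ctr, above the RwwJ range of 9.69 to 9.99. In bulk tissue more cells of a type and more RNA per cell cannot be told apart. Of the RwwJ lines, BXD90 was most like BXD5 in cortex Ctr (r = 0.374 across genes), and it is 1 of the 3 RwwJ lines with libraries that stood apart. In SD the highest r of BXD5 with an RwwJ line was 0.147, with BXD87. The part that tissue sampling or RNA quality had in the BXD5 count was not tested.

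In liver, most genes outside the range in BXD29t were abundant ones at a lower level. Of its 864 genes, 648 were lower, with a median RwwJ level of 7.64 log2 CPM against 5.31 over all listed genes, and 216 were higher, with a median of 5.02. BXD29t was also the deepest liver library in both conditions. Of the 648 lower genes, 623 (96.1%) had more reads in BXD29t Ctr than the RwwJ median, compared with 93.1% of all listed genes. Ahsg, which encodes the plasma protein fetuin-A, had 2030, 2068, 2124 and 2076 reads in BXD5, BXD29, BXD29t and BXD32, yet its level in BXD29t was 7.87 log2 CPM against 8.32, 8.22 and 8.26 in the other TyJ lines. The RwwJ lines spanned 7.96 to 8.59. Apoe, the apolipoprotein E gene, had 1418, 1439, 1459 and 1428 reads and levels of 7.80, 7.70, 7.33 and 7.72. The reads of both genes hardly varied between libraries of different depth.

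The RwwJ liver libraries had the same property. The median slope of log2 reads on log2 library total over the 33 lines in Ctr was 0.63 for genes at 8 log2 CPM or above and 1.67 for genes at 2 to 4, where proportional sampling gives a slope of 1. In cortex Ctr the slopes were between 0.93 and 1.03. With the library total as a covariate, a choice made after seeing the data, BXD29t had 222 liver genes outside the range in both conditions in place of 864. BXD5 then had 136, BXD29 87 and BXD32 290. BXD29t was therefore no longer the highest of the TyJ lines in liver. Genes outside the range in both tissues were listed only without the covariate. Beside the chromosome 11 block and Dph1, those of BXD29t were 2410015M20Rik, Aifm1, Atp5c1, Chchd2, Gstm1, Hnrnph2, Ndufb9 and Tmem97, all lower. The part that depth had in these lower genes was not tested.

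BXD29 had Cry1 as the gene lowered in both tissues. Cry1, a repressor of the circadian clock and a member of the clock list, was at 4.07, 3.4, 3.8 and 4.12 log2 CPM in cortex Ctr of BXD5, BXD29, BXD29t and BXD32 (RwwJ lines 3.68 to 4.40). In liver Ctr it was at 4.83, 4.28, 5.25 and 5.47 (RwwJ lines 4.56 to 6.18). BXD29t was within the RwwJ range in both. Over the 20 clock genes listed in cortex and 19 in liver, limma called 0 between the panels in Ctr, against 0.0269% of all genes in cortex and 0% in liver. At an unadjusted p under 0.05 there were 0 in either tissue, where over all genes there were 9.18% and 5.69%. Their median differences were -0.069 in cortex and -0.066 in liver.

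In BXD32 the clearest line-specific genes were Bag2, Acap3 and Dhtkd1. Bag2, a co-chaperone of Hsp70 on chromosome 1 (33802329 to 33814639), was at 3.42, 3.31, 3.27 and 5.65 log2 CPM in liver Ctr of BXD5, BXD29, BXD29t and BXD32, and the RwwJ lines spanned 2.93 to 4.23. In liver SD, BXD32 was at 5.93, and in cortex Ctr it was at 4.04 against 2.66 to 3.31. Its neighbour Rab23 (33776727 to 33799409), a small GTPase gene, was at 6.39 in liver Ctr of BXD32 against an RwwJ range of 4.84 to 5.93, but at 5.25 in cortex and within the range there. Acap3, a GTPase-activating protein gene on chromosome 4 (155265984 to 155281360), fell outside on the low side. In cortex Ctr it was at 7.50, 7.51, 7.53 and 6.56 against 7.40 to 7.68, and in liver Ctr BXD32 was at 3.14 against 3.67 to 4.56. Scara3, on chromosome 14, was lower in both tissues of BXD32, at 4.66 in cortex Ctr (4.92 to 5.53) and 1.33 in liver Ctr (1.73 to 3.76). DBA/2J was also low, at 4.85 and 4.95 in cortex Ctr and 2.05 and 2.39 in liver Ctr. C57BL/6J was at 5.24 and 5.42 in cortex Ctr and 4.29 and 3.99 in liver Ctr.

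Dhtkd1, which encodes a mitochondrial dehydrogenase of lysine breakdown on chromosome 2 (5817161 to 5863838), was at 8.03, 8.13 and 7.95 log2 CPM in liver Ctr of BXD5, BXD29 and BXD29t. That is the level of DBA/2J (8.20 and 7.97). BXD32 was at 5.80, below both C57BL/6J libraries (6.90 and 7.09) and below the lowest RwwJ line (6.54). In liver SD it was at 5.45 and the RwwJ lines at 6.02 or above. In cortex Ctr, BXD32 was at 3.46 and within the range of 2.99 to 3.72. Cyp2b10, a drug-inducible cytochrome P450 gene, was at 4.78 in liver Ctr of BXD32 with 186 reads and at 7.16 in SD with 817 reads. The highest RwwJ values were 4.32 and 6.07. The chromosome 19 neighbours Cyp2c68, Cyp2c40 and Cyp2c69 were below the RwwJ range in liver of BXD32 in both conditions. As members of large gene families, these P450 genes share reads with close copies and their levels are less certain.

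**Figure D5:**
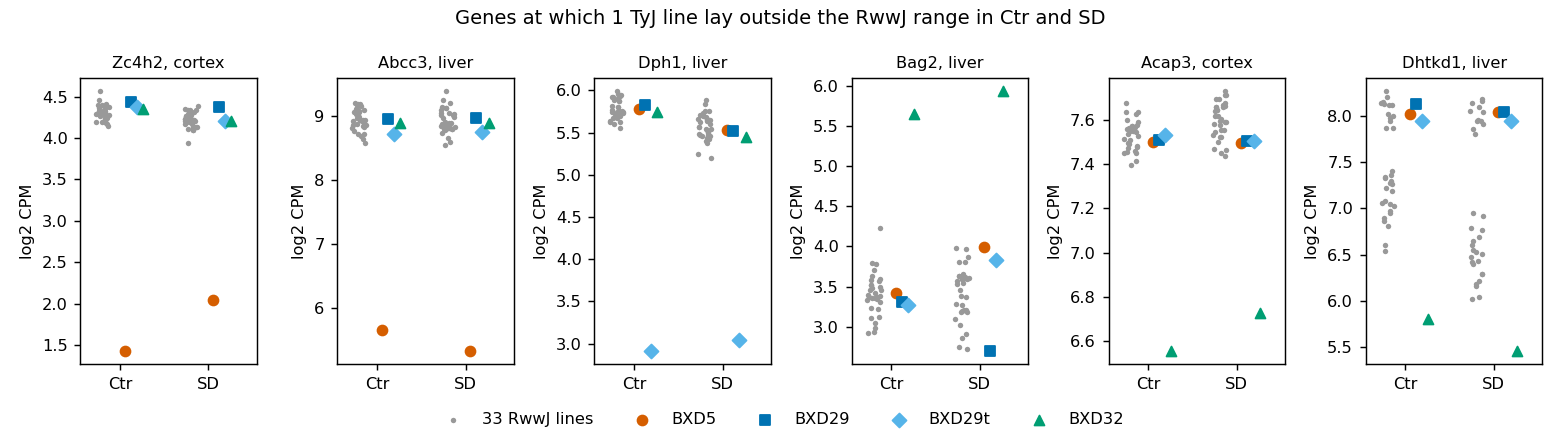
Genes at which 1 TyJ line lay outside the RwwJ range in Ctr and SD, in log2 CPM, in the tissue named above each panel. Grey points are RwwJ lines and coloured symbols TyJ lines. Zc4h2 and Abcc3 are low in BXD5, Dph1 in BXD29t and Acap3 and Dhtkd1 in BXD32, and Bag2 is high in BXD32.

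The TyJ lines were also placed between the parents. A gene was used where the 4 DBA/2J and 4 C57BL/6J libraries of Ctr and SD did not overlap, their means differed by at least 1 on the log2 scale and the higher mean was at least 0 log2 CPM, which held for 382 genes in cortex and 664 in liver. BXD32 was nearer DBA/2J at 81.4% of these genes in cortex and 79.1% in liver. The RwwJ lines ranged from 32.7% to 63.4% (median 46.9%) in cortex and from 31.3% to 60.7% (median 50.0%) in liver, so that BXD32 was above all of them in both tissues. BXD5 was at 48.4% and 45.3%. BXD29 (32.5%) was just under the lowest RwwJ line in cortex and BXD29t (32.7%) level with it, and they were at 43.2% and 42.2% in liver. All 4 TyJ lines were nearer DBA/2J at 50 genes in cortex and 99 in liver, and all 4 nearer C57BL/6J at 37 and 53.

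Among the 37 cortex genes at which all TyJ lines were nearer C57BL/6J, 16 had a Ctr panel difference of at least 1 on the log2 scale, and so had 13 of the 50 nearer DBA/2J. In liver this held for 22 of 53 and 42 of 99. Limma called 0 of all these genes in Ctr in either tissue, against 0.0269% of all genes in cortex and 0% in liver. The genes were chosen for parents at least 1 apart and for TyJ lines on 1 side, which favours large panel differences by construction. The share with such a difference over all genes at which the parents differ was not counted. Alad, the second enzyme of haem synthesis, is known to be duplicated in DBA/2J and lies on chromosome 4 (62170203 to 62180952). It was at 4.86, 4.52, 4.60 and 4.62 log2 CPM in cortex Ctr of BXD5, BXD29, BXD29t and BXD32. C57BL/6J was at 4.57 and 4.56 and DBA/2J at 6.16 and 6.07, and 26 of the 33 RwwJ lines were above all TyJ lines. The difference was -1.12 (standard error 0.29, limma adjusted p = 0.275) in cortex Ctr and -1.03 (limma adjusted p = 0.174) in SD. In liver Ctr, where the parents were 7.85 and 7.94 against 8.41 and 8.56, the TyJ lines were at 7.87, 7.77, 7.71 and 7.89, a difference of -0.51 (limma adjusted p = 0.458). Its neighbour Hdhd3 had the same pattern in cortex Ctr, at 2.22, 1.65, 1.64 and 1.71 with an RwwJ median of 3.35. Wdfy1, an endosomal adaptor gene on chromosome 1, went towards DBA/2J. In liver Ctr it was at 6.87, 6.84, 6.77 and 6.11, with C57BL/6J at 4.28 and 4.34 and DBA/2J at 6.02 and 6.13. Here BXD5, BXD29 and BXD29t exceeded DBA/2J and the highest RwwJ line (6.25), while BXD32 did not. The difference was 1.45 (standard error 0.418, limma adjusted p = 0.458).

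Mcm6, a subunit of the replicative helicase, was low in liver Ctr, at 1.58, 2.93, 3.01 and 3.05 log2 CPM in BXD5, BXD29, BXD29t and BXD32 against an RwwJ median of 4.50, with DBA/2J at 2.75 and 3.37. The difference was -1.63 (limma adjusted p = 0.458), and 27 RwwJ lines were above all TyJ lines. The genes with a shared parental level were chosen because the TyJ lines lie together, so that their likeness is a description.

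In liver, Kit was the gene nearest to a call. Kit, the receptor for stem cell factor on chromosome 5 (75970941 to 76052747), was at 2.79, 2.73, 2.87 and 3.24 log2 CPM in liver Ctr of BXD5, BXD29, BXD29t and BXD32, with 43, 45, 65 and 63 reads. The RwwJ lines started at 3.25 (median 3.62, highest 4.31), and Kit was the only gene whose groups did not overlap in liver Ctr (1 gene, 0.00709%). The difference was -0.77 (standard error 0.147) with a limma adjusted p of 0.0764. Voom (0.0488), median-centred libraries (0.0373) and the library total as a covariate (0.0451) brought the adjusted p under 0.05. It was higher without BXD5 (0.205), BXD29 (0.481), BXD29t (0.307) or both lines numbered 29 (0.493), with lines of the same number averaged (0.275), without BXD50, BXD70 and BXD90 (0.194) and with a prior count of 5 (0.104). Without BXD32 the limma adjusted p was 0.0623, and with the filter on low levels it was 0.0689. Over all settings run the Kit difference in liver Ctr stayed between -0.88 and -0.67. In liver SD the TyJ lines were at 2.60, 2.83, 3.30 and 3.04 and overlapped the RwwJ lines (2.49 to 4.78), and the difference was -0.60 (limma adjusted p = 0.999). In cortex, Kit was at 5.82 to 6.07 in the TyJ lines and within the RwwJ range. In liver SD the gene without overlap was Trafd1 (1 gene, 0.00709%), a negative regulator of innate immune signalling, at 6.92, 7.03, 6.99 and 7.08 against 6.54 to 6.91. Its limma adjusted p was 0.237.

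Ptgds, the prostaglandin D synthase gene, was among the 8 liver genes that voom called in both conditions. It was at 3.54, 4.42, 4.91 and 1.14 log2 CPM in liver Ctr, with 73, 148, 271 and 14 reads, and the RwwJ lines went from -2.77 over a median of 1.25 to 3.64. BXD29 and BXD29t were above all RwwJ lines and BXD32 was at their median. The difference was 2.27 (standard error 0.665, limma adjusted p = 0.458). In cortex, where Ptgds is abundant, the TyJ lines were at 8.95, 9.23, 9.05 and 8.51 against a highest RwwJ value of 9.09.

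Over 15 pathway lists, 2 of 192 memberships in cortex were called in Ctr, both of them Nnt, where 0.0269% of all genes were called. In liver limma called 0 of 243, and 0% of all genes. The median differences of the lists lay between -0.072 and 0.306 in cortex and between -0.071 and 0.444 in liver, where the medians over all genes were -0.0025 and 0.0035. The 12 mitochondrial NADPH and peroxide enzymes, to which Nnt belongs, had a median of 0.038 in cortex with Nnt as the called member, and of -0.039 in liver. Medians in cortex and liver were 0.107 and 0.153 for interferon-stimulated genes, 0.023 and 0.087 for cholesterol synthesis, 0.032 and 0.006 for fatty acid synthesis, and -0.027 and -0.052 for fatty acid oxidation. They were -0.043 and -0.008 for MHC and antigen presentation genes, although single members differed by as much as -1.128 in cortex and 2.091 in liver. In liver the bile acid genes had a median of -0.040, the xenobiotic P450 genes -0.065 and the acute-phase genes -0.071, with 12, 40 and 20 members listed. Fewer than 5 members of each of these lists were listed in cortex, with medians of 0.211, 0.002 and 0.146. The highest medians came from short lists, the 4 panel mutation genes in cortex (0.306) and the 3 GABA-A subunits listed in liver (0.444). The Y-linked genes had medians of -0.072 and 0.061.

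Summed levels of cell type markers were inside the RwwJ range in most TyJ libraries. In cortex, 4 of 60 sums (15 lists in 4 libraries) were outside it in Ctr and 9 of 60 in SD, and in liver 6 of 64 in Ctr and 6 of 64 in SD. In cortex these were the inhibitory neuron sums of BXD5 and BXD32, the cholangiocyte sum of BXD5 in both conditions (a single listed marker), and sums of erythroid cell, astrocyte, Kupffer cell and exocrine pancreas markers in 1 condition each. In liver, the B cell sum was farthest outside, at 0.75 in BXD5 in SD against a lowest RwwJ value of 1.49, and it was at 2.67 in BXD29 in Ctr against 2.78. The hepatocyte sum was low in BXD29t (11.45 in Ctr and 11.44 in SD, against 11.48 and 11.57) and just above the range in BXD32 in SD. The choroid plexus and erythroid cell sums of BXD29t were low in both conditions and its astrocyte sum in SD. BXD29t was the deepest liver library, and the part that depth had in its low sums was not tested. BXD5 was below the range in Ctr for Kupffer cell markers (7.75 against 7.76) and microglia markers (6.79 against 6.87). In cortex Ctr, 2 of 5 pituitary markers were listed, and their sum was inside the RwwJ range in all TyJ lines (-0.32 to 4.61 against -0.70 to 5.90). Of these, the hormone precursor gene Pomc was at 0.75, -0.59, 3.12 and 1.32 log2 CPM in BXD5, BXD29, BXD29t and BXD32 against -0.87 to 0.58 in the RwwJ lines. In SD the TyJ values were between -1.02 and 0.29 and within the RwwJ range. Pomc differed by 1.29 in Ctr (limma adjusted p = 0.162), and limma called it when BXD29 was left out or lines of the same number were averaged.

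No gene was called for a response to sleep deprivation that differed between the panels. The interaction of panel and condition was called by limma at 0 genes in cortex, with 379 at an unadjusted p under 0.05. In liver it was called at 0, with 201, and voom called 0 in both tissues. These fits did not use the pairing of Ctr and SD libraries by line, which can widen the standard errors. A limma fit that used it also called 0 genes in either tissue. Homer1, a synaptic scaffold gene whose short form rises with wakefulness, rose by 1.03 in BXD5, 0.85 in BXD29, 0.80 in BXD29t and 0.84 in BXD32 on the log2 scale in cortex. The RwwJ lines had changes of 0.35 to 1.36 with a median of 0.84. Its interaction was 0.01 (standard error 0.1124, limma adjusted p = 1.0), and its Ctr levels of 7.01, 7.37, 7.50 and 7.20 were within the RwwJ range of 6.98 to 7.64. Arc, an immediate early gene of synaptic plasticity, rose by 3.74, 2.54, 2.25 and 3.05 against 0.52 to 4.16. Between the panels in cortex, limma called 0.0269% of all genes in Ctr, 0.0336% in SD, and 0 of the 20 activity-regulated genes in either. Their median panel difference in Ctr was -0.029 in cortex and -0.056 in liver.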

How the data were processed

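RNA-seq libraries of cerebral cortex and liver were used. Per the study's methods, the authors aligned reads to mm9 with STAR, counted them by strand on RefSeq genes with HTSeq, and scaled them with edgeR; FastQC is also named. The deposited values are log2 CPM, and reversing that transform returned integers to a tolerance of 0.02 in 100% of cases. From these, depth was summed over the listed genes and voom was run. A gene without reads is at -4.51 log2 CPM in cortex Ctr and -2.77 in liver Ctr.

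TyJ and RwwJ libraries were compared per tissue and condition with limma 3.58.1 in R 4.3.3 (eBayes with trend). Genes were called at 0.05 after Benjamini-Hochberg adjustment across the 14896 genes of cortex or the 14107 of liver. A difference held in SD if it was called there too with the same sign. No minimum fold was set. Named by rule were the held genes, the listed panel mutation genes and Homer1. The members, lists and rules were chosen with earlier results of these data known. Samples were grouped by the genotype, condition and tissue labels.

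Ctr and SD libraries pair by line, as the labels name it. The interaction fit given did not use this pairing, and the line as a replicate block was an alternative that did. With genes centred by panel and condition, the lowest correlation of a line's own Ctr and SD libraries was 0.286 for cortex and 0.307 for liver. The medians were 0.613 and 0.494 within a line and -0.022 and -0.017 between lines. Positions are from GENCODE M1 on mm9 (NCBIM37), matched for 92.5% of cortex and 92.9% of liver symbols. Alternatives were lines of 1 number averaged, lines left out, voom, a prior count of 5, a filter on low levels, median-centred libraries and, added after seeing the data, 3 RwwJ lines left out and the library total as a covariate. Tests were checked on simulated data. Other tools were python 3.11.15, numpy 2.4.6, pandas 2.3.3 and matplotlib 3.10.9.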

Additional observations from a re-analysis of the deposited data

Results flagged for a closer look

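In groups of 4 TyJ libraries, 1 library lay far from the other 3 in 29 of 162 gene, tissue and condition groups, by the ratio of its gap to the whole range. Chance gives about 1 in 20, and many of these genes had been chosen after their values were seen. All values are log2 CPM.

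BXD5 was the library apart for Zc4h2 (1.43 in cortex Ctr, 2.04 in cortex SD and -0.69 in liver Ctr) and Abcc3 (5.67 in liver Ctr and 5.34 in liver SD). It was also apart for Mcm6 in liver (1.58 in Ctr and 1.01 in SD), Cyp3a44 in liver SD (4.12), Dnajb12 in liver Ctr (7.19) and Dhtkd1 in cortex SD (2.89). In cortex Ctr it was apart for Gabra2 (5.62), Atxn7 (5.20) and Hdhd3 (2.22).

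BXD29t was apart for Dph1 (2.95 in cortex Ctr, 2.91 in liver Ctr and 3.04 in liver SD), Ovca2 in liver SD (3.93), Usp25 in cortex SD (6.28) and Tmem246 in liver Ctr (0.93, with 16 reads). BXD29 was apart for Rab23 in cortex SD (5.35).

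BXD32 was apart for Acap3 (6.56 in cortex Ctr and 6.73 in cortex SD), Dhtkd1 (5.80 in liver Ctr and 5.45 in liver SD), Bag2 (5.65 in liver Ctr) and Scara3 (1.33 in liver Ctr). It was also apart for Wdfy1 (6.11) and Atxn7 (6.39) in liver Ctr and for Mcm6 in cortex Ctr (1.30).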

How the results depend on the processing

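Precision was limited by 4 TyJ libraries with 3 line numbers. Liver libraries were shallower, and what depth did to the calls was not tested beyond the covariate. In 119 of 170 counts under an alternative the value was unchanged or stayed within 1.5 times. The 119 include counts that were 0 in both settings, so this share does not measure how stable the other counts were. With lines of 1 number averaged, 0 genes were called in cortex SD and 0 held, and 5 genes in cortex Ctr and 3 in liver Ctr were without overlap. Without BXD29 and BXD29t, cortex Ctr had 93 of 14896 genes without overlap, cortex SD 192 and both conditions 13. Liver had 43, 97 and 1 of 14107 genes. In liver there were then 3 calls in Ctr, 13 in SD and 1 held. Leaving out 1 TyJ line at a time (without BXD5, BXD29, BXD29t or BXD32), called genes ranged from 1 to 8 in cortex Ctr and from 0 to 8 in cortex SD, and 0 to 6 held. Genes without overlap then ranged from 3 to 13 (cortex Ctr), 3 to 14 (cortex SD), 0 to 1 (both), 2 to 13 (liver Ctr), 2 to 7 (liver SD) and 0 to 1 (both). A group of fewer TyJ values fails to overlap more easily by its size alone. Counts without overlap from averaged or left-out lines therefore cannot be set against those from 4 TyJ libraries. Voom gave 7 calls in cortex Ctr, 9 in cortex SD and 5 held, and 18, 13 and 8 in liver. Median-centred libraries gave 1 call in liver Ctr (Kit) and 1 gene without overlap in cortex SD and 0 in liver SD. Without BXD50, BXD70 and BXD90, 10 genes were called in cortex Ctr and 1 held (Tsr1). With the library total as a covariate, liver had 2 calls in Ctr, 4 in SD and 1 held (Mup21). Where each line served as a replicate block, which uses the pairing of Ctr and SD, the interaction was called at 0 genes in cortex and 0 in liver, and no call changed.

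The sign of a difference turned without BXD29 and BXD29t in cortex for Srr Ctr (-0.20), Mettl16 SD (-0.0280) and Sgsm2 (Ctr -0.13, SD -0.0946). In liver it turned for Tsr1 (Ctr -0.0648, SD -0.0662), Unc13b SD (-0.0065), Tmem246 Ctr (-0.11), Srr Ctr (-0.0202), Mettl16 (Ctr -0.15, SD -0.0244), Mnt SD (-0.18) and Sgsm2 (Ctr -0.14, SD -0.25). Srr, Mettl16, Sgsm2, Mnt and Tsr1 are genes of the block raised in these lines, which leaving them out removes by construction. For Unc13b and Tmem246 the cause was not tested. Tmem246 in liver Ctr also turned with lines averaged (-0.0379) and, with lines left out in turn (-0.14 to 0.10), without BXD29t, and Homer1 turned without BXD5 in cortex Ctr (-0.16 to 0.0044) and liver SD (-0.0005 to 0.13); for these the cause was not tested.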
